A study of Xenopus laevis with 8 samples.

Results

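The genes described here are those that carry a cell through division: cyclins and their kinases, the mitotic kinases and spindle motors, the kinetochore and its checkpoint, the ring complexes that hold and fold chromosomes, and the ubiquitin ligase that ends mitosis. They were chosen by name, with earlier results of these data known. Every probe set was taken whose array annotation gives 1 symbol beginning with a name of these families. All copies and all probe sets were kept. This gave 147 of 15491 probe sets, with 125 symbols, or 97 of 6504 named genes when the L and S copies of Xenopus laevis are joined. The name rule also takes in some genes with other work, such as transport kinesins and transcriptional kinases, and these were kept in groups of their own. A further 2 probe sets carried the symbols of both copies of a gene and were not named.

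The samples were head sections and tail sections of untreated stage 18 embryos, a neurula stage of the African clawed frog. Their total RNA was amplified and hybridised to an Affymetrix array. There were 4 head and 4 tail arrays, of which replicates 1 to 3 of each tissue came from a single embryo each and replicate 4 from pooled embryos. Genotype and strain, the number of embryos in a pool, the clutches, and whether equal numbers mark a head and a tail of 1 embryo are not given in the labels. The p-values therefore measure only how these samples vary among themselves. Each section holds many tissues.

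In the cell cycle, D and E cyclins with Cdk4, Cdk6 and Cdk2 bring a cell from G1 into S phase, in which DNA is copied. A and B cyclins with Cdk1 then drive it into mitosis, held back by Wee1 kinases and released by Cdc25 phosphatases. During mitosis, Polo and Aurora kinases build the spindle, kinetochores join chromosomes to it, a checkpoint waits for the last one to attach, and the anaphase-promoting complex then destroys B cyclins and securin. The early frog embryo divides with very short cycles on maternal stores and gains gap phases later, and by the neurula stages cell division is slower and differs between tissues.

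Head and tail markers followed the labels of the sections. The marker lists were chosen with earlier results of these data known, so they are no independent check of the labels. Of 8 head markers tested (among them otx1, pax6 and ag1), 7 were higher in heads, and of 7 tail markers tested (among them hoxa7, myf5 and tbxt), 7 were higher in tails (limma adjusted p under 0.05). Every tested tail marker except wnt8a.L met the brightness filter (a mean log2 signal of 7.865 over all arrays) only through its high tissue. The head means were 4.81 for hoxa7.L, 5.15 for hoxc8.S, 7.67 for tbxt.S, 7.35 for tbx6.L, 6.95 for myf5.L and 7.64 for mespa.S. Of the head markers, nkx2-1.L and pitx1.L met it only through heads, with tail means of 7.06 and 7.23. The counts of both lists, and that of tail markers most of all, therefore lean toward a difference. Median signals of single arrays lay between 327 and 390 intensity units. Head replicate 1 and tail replicate 1 lay farthest from the other arrays of their tissue, by a median absolute log2 distance of 0.38 and 0.45 over all tested probe sets, against 0.24 to 0.35 for the other arrays. Over the tested cell division genes alone these distances were 0.28 and 0.41, against 0.22 to 0.33, so head replicate 1 did not stand apart there. In head replicate 1 the ratio of the 3' to the 5' probe set of the beta-actin control was 193, against 14 to 25 in the other heads and 15.6 to 27.4 in tails. The same ratio for the Gapd control did not set that array apart, at 70.2 against 72.5 to 132 in the other heads and 53.9 to 159 in tails. Because of the distances over all tested probe sets, counts are also given without the arrays of replicate 1.

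With all 8 arrays, the share of cell division genes called in either direction was close to that of all tested probe sets, but every call was higher in heads. Of the 147 probe sets, 110 were bright enough to be tested (a mean log2 signal of at least 7.865, the 40th percentile), covering 80 genes. Of these, 5 were higher in heads and 0 were higher in tails in limma with Benjamini-Hochberg adjustment over all 9295 tested probe sets. Over all tested probe sets, 2.00% were higher in heads and 2.61% higher in tails, or 4.62% in either direction. The 5 of 110 are 4.55%, close to the 4.62% of all tested probe sets in either direction with all 8 arrays. All 5 were higher in heads, where the share over all tested probe sets was 2.00%. With 1 array left out the members' share ran from 0.909% (without head replicate 2, where that of all probe sets was 2.44%) to 5.41% (without tail replicate 1, against 5.47%). Without head replicate 1 it was 1.83% against 5.17%, and in the single-embryo arrays alone 0.901% against 2.28%. Those 5 were cdk2.S, cenpm.L, cenpv.L, smc6.1.L and ncaph2.L.

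At an unadjusted p under 0.05, 19 of the 110 tested members were higher in heads, where the share over all probe sets was 8.84%. In tails 2 of the 110 were higher, where that share was 8.61%. Heads and tails did not overlap for 15 members higher in heads and 1 higher in tails, against 5.95% and 5.71% of all tested probe sets. The median log2 change of the tested members, heads minus tails, was 0.25, against 0.06 for all tested probe sets, and 84 of 110 were above 0, against 56.0% of all. Large changes were few: 5 members (4.55%) moved by more than 1 log2 unit, against 6.26% of all tested probe sets, and 72 of the 110 had a 95% interval lying within 1 log2 unit of 0. Without head replicate 1 and tail replicate 1, 3 members were higher in heads and 1, wee1.S, in tails. Together these were 3.7% of the members tested there, against 7.31% of all probe sets. RNA was taken from whole sections, so fewer cells of a type and less RNA per cell cannot be told apart.

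**Figure D1:**
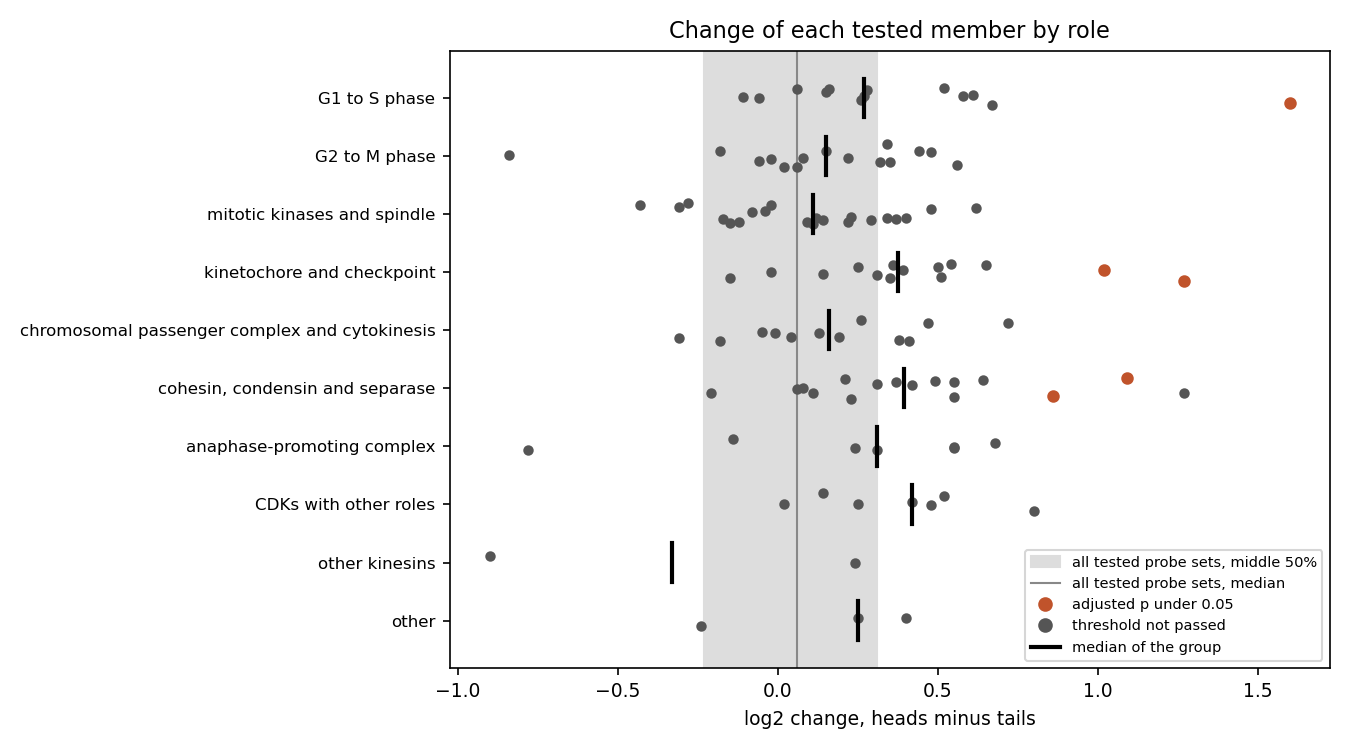
Log2 change between heads and tails (x axis, heads minus tails) of each of the 110 tested members, sorted by role; dots are probe sets, black bars the median of each group, and the grey band the middle 50% of all tested probe sets (-0.23 to 0.31). The 5 members past the threshold lie at the right, in the G1 to S, kinetochore and cohesin and condensin groups, while the spindle group, with a median of 0.11, is centred inside the band.

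The G1 to S group held the member with the largest change. Of 13 tested probe sets of D and E cyclins, their kinases, Cdc25a and E2F factors, 1 was higher in heads and 12 did not pass. Over all tested probe sets 2.00% were higher in heads, and the group's median log2 change was 0.27. The 1 call was cdk2.S, which encodes the kinase that E and A cyclins switch on for DNA replication. Its log2 signal was 12.28, 11.78, 11.71 and 11.25 in head replicates 1 to 4 and 10.48, 10.74, 9.65 and 9.76 in tail replicates 1 to 4. Every head lay above every tail, and the pooled head was the lowest of the heads. Heads averaged 11.75 ± 0.42 and tails 10.16 ± 0.53 (SD over 4 arrays), a 3.02-fold difference (limma adjusted p = 0.0104). It passed in each of 19 other settings, with log2 changes from 1.42 to 1.79 and an adjusted p of at most 0.044.

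The cyclins that pair with Cdk2 and Cdk4 did not pass. The D cyclin ccnd1.L, a brightly measured gene, was at 13.66, 13.38, 13.94 and 13.23 in heads and 13.08, 12.98, 13.30 and 12.77 in tails. The head pool lay just below the highest tail, and the log2 change of 0.52 (95% interval 0.06 to 0.97) had a limma adjusted p of 0.214. The S copy, ccnd1.S, had a log2 change of 0.15 (-0.36 to 0.66). A probe set annotated ccnd2 had no overlap, from 7.97 to 8.38 in heads and from 7.37 to 7.68 in tails, yet its log2 change of 0.67 did not pass (limma adjusted p = 0.162). A second ccnd2 probe set, ccnd2.L, had a log2 change of 0.26. The E-type cyclins had log2 changes of 0.27 for ccne1.S, 0.06 for the tested ccne1.L probe set and -0.11 for ccne2.L. The kinase partner of D cyclins, cdk4.S, had means of 12.72 ± 0.23 and 12.56 ± 0.37 (SD, n = 4 each), with a log2 change of 0.16 (95% interval -0.34 to 0.65).

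Among E2F factors, which switch genes of S phase on or off, the activator e2f1.L was at 9.45, 9.90, 10.27 and 10.09 in heads and 9.11, 9.37, 9.28 and 9.50 in tails. Head replicate 1 fell among the tails, and the log2 change of 0.61 did not pass (limma adjusted p = 0.186). The repressor e2f7.L had a log2 change of 0.58 and the activator e2f3.S one of -0.06 (limma adjusted p = 0.31 and 0.933). The phosphatase gene cdc25a.L, which activates Cdk2, had a log2 change of 0.28 for its brighter probe set.

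The G2 to M group had no call. Of 15 tested probe sets of A and B cyclins, Cdk1, Cdc25c and Wee kinases, 0 passed the limma threshold in either direction, 0 had an unadjusted p under 0.05, and the median log2 change was 0.15. The B cyclin ccnb1.2.L was at 12.89, 12.92, 12.48 and 12.53 in heads and 12.90, 12.31, 13.04 and 12.33 in tails. The groups overlapped, and the log2 change was 0.06 (95% interval -0.43 to 0.56). Its S copy had a log2 change of -0.18 (-0.72 to 0.35).

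The other B cyclins did not pass either. For ccnb2.L the log2 change was -0.02 (-0.53 to 0.49) and for ccnb2.S it was -0.06 (-0.62 to 0.49). For ccnb3 the S copy was at 0.02 and the L copy at 0.44 and 0.34 in its pair of probe sets (limma adjusted p = 0.33 and 0.524). The A cyclin ccna2, which acts in S phase and at mitotic entry, had log2 changes of 0.22 for ccna2.L and 0.35 for ccna2.S. The germline-type A cyclin ccna1 lay under the filter for both copies, with log2 changes of 0.27 for ccna1.L and -0.51 for ccna1.S when no filter was used.

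The mitotic kinase itself, Cdk1, had positive log2 changes that did not pass. The S copy, cdk1.S, was at 11.95, 11.30, 11.55 and 10.61 in heads and 11.29, 10.78, 10.90 and 10.18 in tails. In both tissues the pool was the lowest array, and the groups overlapped. The log2 change was 0.56 (95% interval -0.12 to 1.24; limma adjusted p = 0.398), and 0.36 without head replicate 1 or without the tail pool. For cdk1.L the change was 0.48, with heads at 10.29 to 10.39 above tails at 9.29 to 10.26 (limma adjusted p = 0.322). The phosphatase cdc25c.L, which activates Cdk1, had means of 9.42 ± 0.10 and 9.27 ± 0.12 (SD, n = 4 each) and a change of 0.15.

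The Wee1 kinases, which hold Cdk1 inactive, varied most between arrays among these genes. For wee1.S the log2 signal was 10.25, 10.18, 10.50 and 10.89 in heads and 9.82, 11.46, 11.61 and 12.26 in tails. Tail replicate 1 was the lowest of all 8 arrays, while the other 3 tails lay above every head. With all arrays the log2 change was -0.84 (95% interval -1.76 to 0.09; limma adjusted p = 0.345), and without tail replicate 1 it was -1.32 (adjusted p = 0.0138). Without the tail pool it was -0.51 (adjusted p = 0.554), so single arrays moved it both ways. Without both replicates numbered 1 it was -1.26 (adjusted p = 0.0199). The L copy was at 9.85, 10.13, 10.17 and 11.13 in heads and 9.05, 9.81, 10.38 and 11.71 in tails, with a log2 change of 0.08. In wee1.L and wee1.S alike the pool was the highest array of each tissue. The egg-type relative wee2.S had a log2 change of 0.32.

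**Figure D2:**
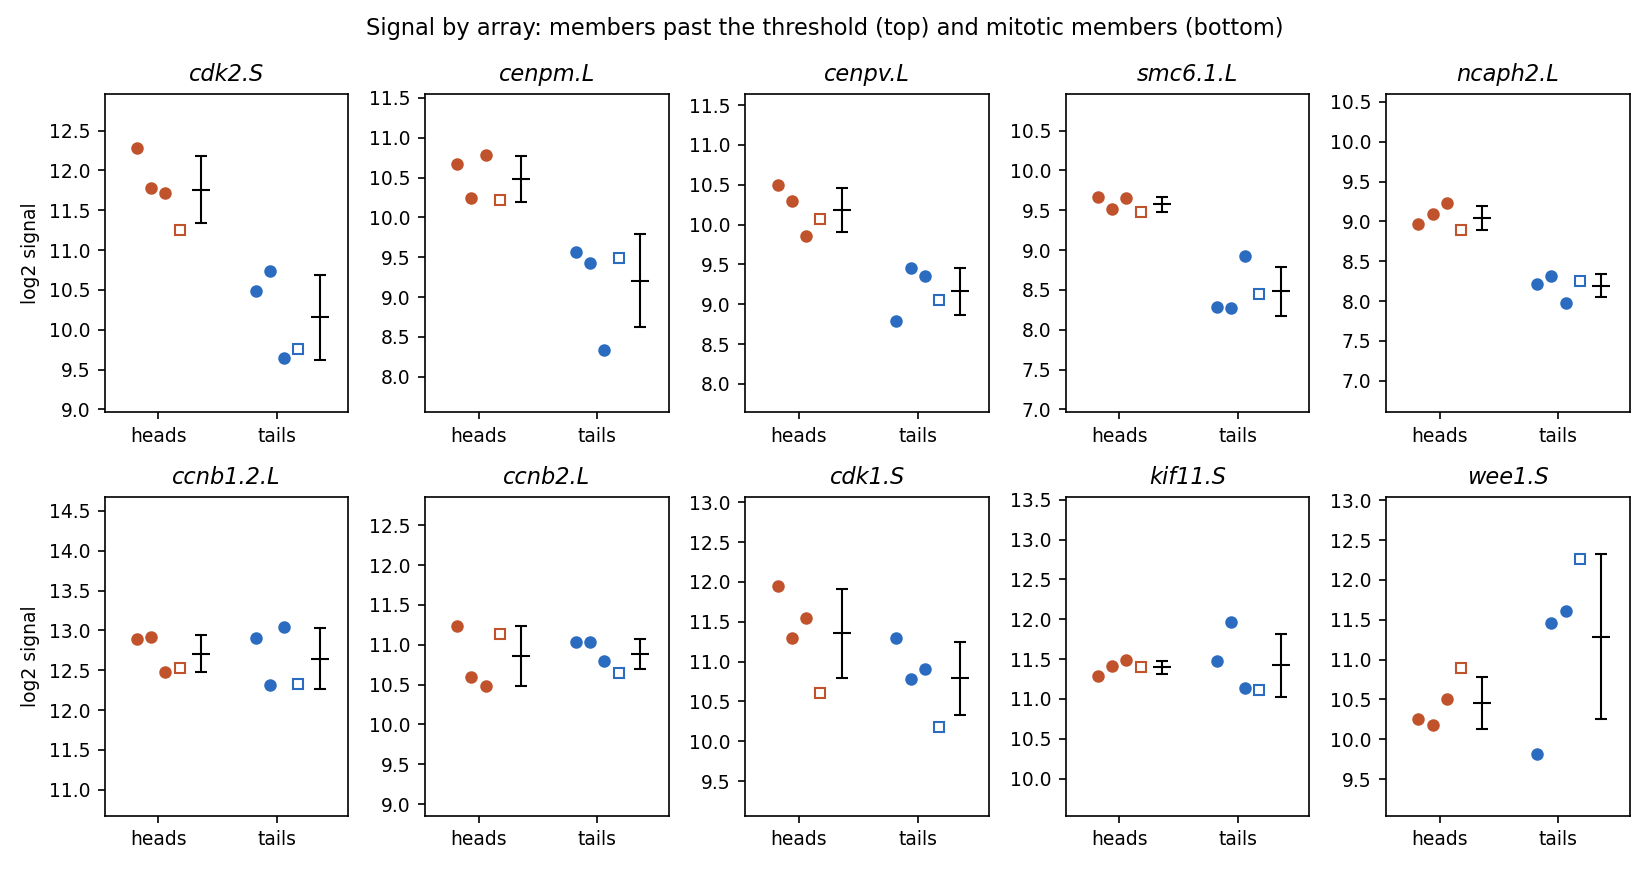
Log2 signal (y axis, a span of 4 log2 units in every panel) of the 5 members past the threshold (top) and of 5 mitotic members (bottom); filled circles are single embryos, open squares pools, and bars the mean ± SD of 4 arrays. Heads and tails are apart in the top panels, overlap for ccnb1.2.L, ccnb2.L, cdk1.S and kif11.S, and in wee1.S tail replicate 1, at 9.82, lies below the heads.

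Mitotic kinases and spindle proteins had a median log2 change of 0.11, the smallest of the groups with 7 or more tested probe sets. Of 21 tested probe sets, 0 passed in limma in either direction and 2 had an unadjusted p under 0.05. Both were higher in heads, where the share over all tested probe sets was 8.84%. The Polo kinase plk1.S was measured by 3 probe sets with log2 changes of 0.40, 0.22 and 0.12. The brightest was at 12.86, 12.38, 12.68 and 12.73 in heads and 11.96, 12.82, 12.68 and 12.30 in tails, so the groups overlapped. All 3 probe sets were lowest in tail replicate 1, at 10.32, 11.96 and 10.48. Without that array the change of 0.40 was -0.02. Plk4, the kinase of centriole duplication, had a log2 change of 0.29 (plk4.L).

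Aurora A, which matures centrosomes, had a log2 change of 0.37 for aurka.S (95% interval -0.15 to 0.90) and -0.28 for aurka.L (-0.86 to 0.29). Its activator tpx2.S had one of -0.12 and the brighter tpx2.L probe set one of -0.15. The motor kif11, which pushes spindle poles apart, had log2 changes near 0, while its tails varied (SD 0.39 for kif11.S and 0.53 for kif11.L, n = 4). For kif11.S the log2 signal was 11.29, 11.41, 11.49 and 11.40 in heads and 11.48, 11.96, 11.14 and 11.11 in tails, and the changes were -0.02 for kif11.S and -0.04 for kif11.L. The microtubule-depolymerising motor gene kif2a.S had a log2 change of 0.48, with an unadjusted p of 0.0472 and a limma adjusted p of 0.277. The kif2c.S probe sets disagreed, at 0.62, 0.14 and -0.17, and the first of these is of a type whose probes can bind other transcripts.

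The kinetochore and checkpoint group had 2 of 14 tested probe sets higher in heads, where the share over all tested probe sets was 2.00%. It had 12 that did not pass and a median log2 change of 0.38. Both genes called are named as centromere proteins. The gene cenpm.L, whose product belongs to the inner kinetochore network that stays on centromeres through the cycle, was at 10.67, 10.24, 10.78 and 10.22 in heads and 9.56, 9.43, 8.33 and 9.49 in tails. All heads lay above all tails, and tail replicate 3 lay well below the other tails. The difference was 2.42-fold (log2 change 1.27, limma adjusted p = 0.0304). It missed the threshold without head replicate 1 (adjusted p = 0.0603), 2 (0.0652), 3 (0.106) or 4 (0.051) and without tail replicate 2 (0.0607) or 3 (0.0717), and its log2 change without tail replicate 3 was 0.99.

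The second, cenpv.L, encodes a protein described in human cells as acting in chromosome alignment and cytokinesis. It was at 10.50, 10.30, 9.86 and 10.07 in heads and 8.79, 9.45, 9.35 and 9.05 in tails. The groups were apart, with a 2.03-fold difference (log2 change 1.02, limma adjusted p = 0.0292). It missed the threshold without head replicate 1 (adjusted p = 0.0592), 2 (0.095) or 4 (0.0626) and without tail replicate 3 (0.0687) or 4 (0.0638). Without both replicates numbered 1 its log2 change was 0.79 (adjusted p = 0.0641).

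The rest of the kinetochore did not pass. Of the inner proteins, cenpk.L, cenpl.S, cenpn.L and cenpp.L had log2 changes of 0.51, 0.50, 0.25 and 0.14. Of the outer Ndc80 complex, which grips microtubules, ndc80.S had one of 0.65, spc24.L one of 0.35 and nuf2.L one of -0.15, and all 3 missed the threshold. Without tail replicate 1 the change of ndc80.S was 0.35, and without the head pool it was 0.43. The interval for nuf2.L was -0.62 to 0.32 and that for ndc80.S was -0.12 to 1.42.

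Among checkpoint genes, bub3.L, which docks the Bub kinases, was at 13.06, 12.61, 12.64 and 12.38 in heads and 12.07, 12.14, 12.20 and 12.13 in tails. All heads lay above all tails, but the log2 change of 0.54 did not pass (limma adjusted p = 0.169). The brighter mad2l1.S probe set, for the protein that inhibits Cdc20, had no overlap and a change of 0.36 (adjusted p = 0.39). The kinase bub1.L had a change of 0.39 and the kinase-like bub1b.L one of -0.02. For bub1b.L head replicate 1 was at 8.87 and the other heads at 10.16 to 10.30, and its change without that array was 0.32. The checkpoint kinase ttk.S lay under the filter, with a change of 0.06.

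The chromosomal passenger complex, which corrects wrong attachments and later marks the cleavage furrow, had 0 of 12 tested probe sets past the limma threshold together with the cytokinesis genes, and a median log2 change of 0.16. At an unadjusted p under 0.05, where 8.84% of all tested probe sets were higher in heads, there was 1, birc5l.L, a survivin-like gene. It was at 11.31, 11.37, 11.07 and 11.16 in heads and 10.99, 10.52, 10.72 and 10.79 in tails. The groups did not overlap, and the change of 0.47 had a limma adjusted p of 0.234. Its relative birc5.S had a change of -0.31, with head replicate 1 at 11.02 and the other heads at 8.97 to 9.48, and its change ran from -0.75 without that head to -0.07 without head replicate 2. The scaffold incenp.L had a change of -0.01 and incenp.S one of 0.13. Aurora B had changes of 0.38 (aurkb.L) and 0.72 (aurkb.S), with limma adjusted p of 0.663 and 0.392. The change of aurkb.L was 0.00 without tail replicate 1, which was at 9.90 while the other tails were at 11.02 to 11.62, and 0.58 without tail replicate 2.

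Cytokinesis genes showed small changes. The midzone motor kif20a.L was at 11.62, 11.63, 11.58 and 11.63 in heads and 11.67, 11.94, 11.68 and 11.89 in tails. It is the 1 member whose tails all lay above its heads, by a log2 change of -0.18 that did not pass (limma adjusted p = 0.681). The centralspindlin genes kif23.S, racgap1.L and racgap1.S had changes of 0.19, 0.04 and 0.26, and anln.L, for the furrow scaffold anillin, had one of -0.05.

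Genes of chromosome structure had a median log2 change of 0.39, against 0.38 in the kinetochore group and 0.42 in the 7 tested probe sets of CDKs with other roles. Of 16 tested, 2 were higher in heads, where the share over all tested probe sets was 2.00%, and 14 did not pass. At an unadjusted p under 0.05 there were 6, all higher in heads, where that share was 8.84%. The gene smc6.1.L encodes a subunit of the SMC5/6 ring, which acts in DNA repair and replication. Its passing probe set was at 9.66, 9.51, 9.65 and 9.48 in heads and 8.29, 8.27, 8.93 and 8.45 in tails. Heads were tightly grouped and all above the tails, a 2.13-fold difference (limma adjusted p = 0.0173). A second smc6.1.L probe set had a log2 change of 1.27 but a wide spread in tails, from 6.50 to 9.66 (limma adjusted p = 0.22). The first missed the threshold without head replicate 2 (adjusted p = 0.0507) or 3 (0.0595) and without tail replicate 2 (0.0538).

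Condensins fold chromosomes before mitosis. The kleisin gene of condensin II, ncaph2.L, was at 8.97, 9.09, 9.23 and 8.89 in heads and 8.22, 8.31, 7.98 and 8.25 in tails, a 1.81-fold difference (log2 change 0.86, limma adjusted p = 0.0436). The groups were apart, yet the call was close to the threshold: it was lost without any 1 array, with adjusted p from 0.0538 (without tail replicate 1) to 0.152 (without tail replicate 3). With quantile normalization its adjusted p was 0.0712. A dim second probe set had a change of 0.13. The other condensin II genes ncapg2.L and ncapd3.L had changes of 0.64 and 0.55 (limma adjusted p = 0.114 and 0.211), with no overlap for ncapg2.L.

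In condensin I, ncapg.L had no overlap, from 11.18 to 11.67 in heads and from 10.60 to 10.93 in tails, and a log2 change of 0.55 (limma adjusted p = 0.172). The changes of ncapd2.S and ncaph.L were 0.49 and 0.31. The core subunits shared by both condensins had changes of 0.37 (smc2.L) and 0.11 (smc4.L), and that of smc2.L ran from 0.09 without head replicate 3 to 0.59 without the head pool. Cohesin, which holds sister chromatids together, had changes of -0.21 and 0.23 in the probe sets of smc1a.L and of 0.06 for smc3.L. Separase, which cuts cohesin, had changes of 0.42 (espl1.L) and 0.21 (espl1.S).

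The anaphase-promoting complex had 7 tested probe sets, of which 0 passed in limma, and a median log2 change of 0.31. At an unadjusted p under 0.05, 2 were higher in heads and 1 in tails, against 8.84% and 8.61% of all tested probe sets. The RING subunit gene anapc11.L was at 12.57, 12.40, 11.99 and 11.70 in heads and 11.36, 11.91, 11.65 and 11.04 in tails, with a change of 0.68 (limma adjusted p = 0.191). The gene anapc16.L was at 11.08, 10.98, 10.82 and 10.79 in heads and 12.28, 11.85, 11.66 and 10.99 in tails. Of the tails only the pool overlapped the heads, and the change was -0.78 (adjusted p = 0.14), or -1.02 without that pool (adjusted p = 0.0325). The activators cdc20.S, cdc20.L and fzr1.L had changes of 0.24, 0.55 and -0.14.

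**Figure D3:**
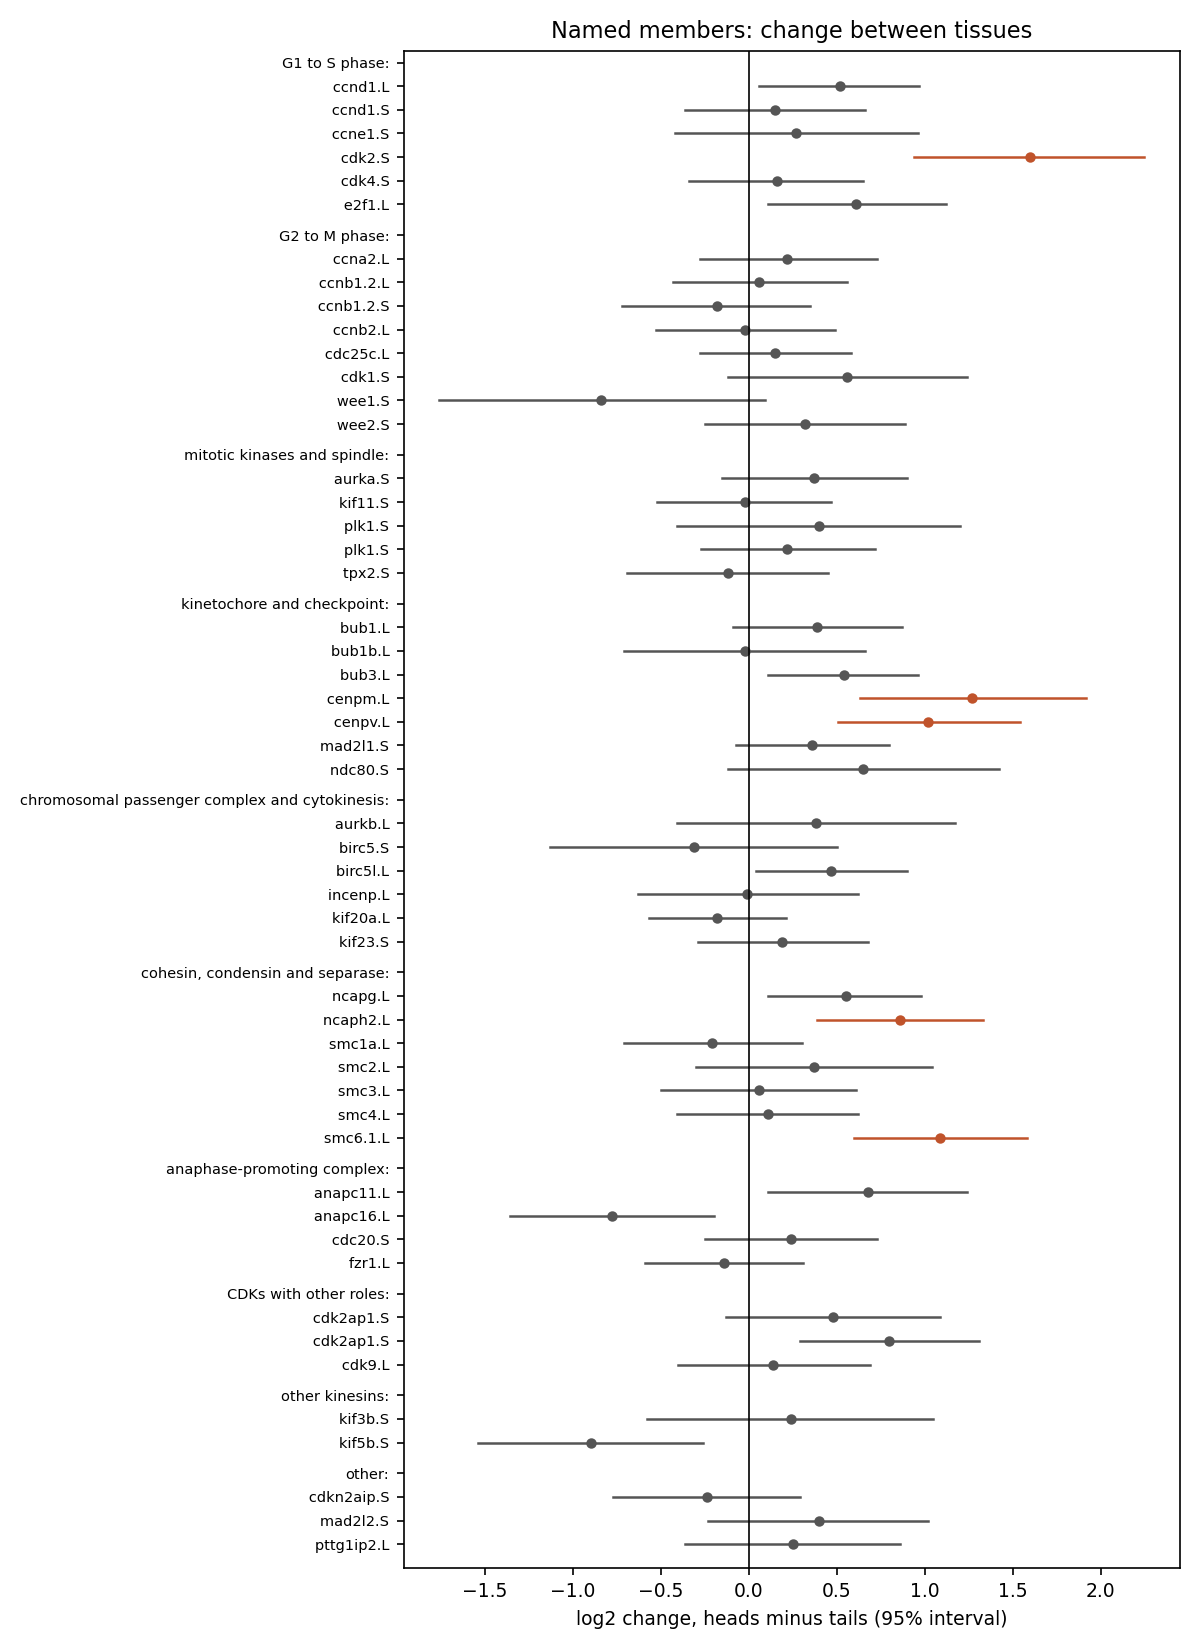
Log2 change, heads minus tails, with its 95% interval from limma (x axis) for the 51 named probe sets that were tested, by role; orange marks the 5 with an adjusted p under 0.05. The intervals of ccnb1.2.L, ccnb2.L, kif11.S and incenp.L are centred near 0, and those of wee1.S, anapc16.L and kif5b.S lie mostly to the left.

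Members with other work were also compared. Of 7 tested probe sets of transcriptional and other CDKs and of CDK-binding proteins, 0 passed in limma, with a median change of 0.42. At an unadjusted p under 0.05 there was 1, higher in heads, where the share over all tested probe sets was 8.84%. It belongs to cdk2ap1.S, a Cdk2-binding protein, whose probe sets had changes of 0.80 and 0.48. The first, of the type whose probes can bind other transcripts, was at 11.82 to 12.49 in heads and 11.08 to 11.67 in tails without overlap (limma adjusted p = 0.0818), and without tail replicate 1 its change was 0.91 (adjusted p = 0.047). The transcription kinase genes cdk7.L and cdk9.L had changes of 0.42 and 0.14. The transport kinesin kif5b.S, which moves cargo along microtubules in neurons and other cells, was at 9.44, 9.74, 10.00 and 10.37 in heads and 10.68, 10.12, 10.97 and 11.37 in tails. It had the lowest change of all tested members, -0.90, without passing (limma adjusted p = 0.128). The intraflagellar kinesin kif3b.S had a change of 0.24. The 3 remaining tested probe sets, cdkn2aip.S, mad2l2.S and pttg1ip2.L, had changes of -0.24, 0.40 and 0.25.

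The 37 members under the filter were fitted with no filter on low signals. There, 0 passed in limma, and 3 had an unadjusted p under 0.05: anapc10.L and cdk19.L, higher in heads, and a dim second probe set of wee1.S, with a change of -1.43. Of the 110 that passed the filter, 3 had the mean of 1 tissue under it. These were ccnd2 and espl1.L in tails and the dimmer tpx2.L probe set in heads. Of these, ccnd2 is counted among the members without overlap and those with an unadjusted p under 0.05. No probe set with 1 symbol was found for cdc25b, cenpa, cenpe or a CDK inhibitor.

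The L and S copies of a gene, left from the ancient genome duplication of this frog, were also compared. Both copies were tested for 20 genes, and in 16 of them the copies' brightest probe sets had the same sign of change. Since 76.4% of all tested members had a positive change, many pairs share a sign whatever their relation. The median absolute difference between the copies' log2 changes was 0.23, and 18 pairs lay within 0.5, while the middle 50% of the tested members spanned only 0.02 to 0.48. The pairs farthest apart were wee1 (0.92) and aurka (0.66). Because the copies are alike in sequence, a probe set may pick up RNA of either, and the copies are not independent measurements.

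By array, the median deviation of the tested members from their own mean over the 8 arrays was 0.18, 0.12, 0.11 and 0.16 log2 units in heads and -0.27, -0.16, -0.09 and -0.06 in tails. Over all tested probe sets it ran from 0.02 to 0.04 in heads and from -0.02 to 0.01 in tails. The kinetochore group ran from 0.15 to 0.39 in heads and from -0.31 to -0.20 in tails, and the cohesin and condensin group from 0.17 to 0.36 and from -0.42 to 0.01. In both groups the sections did not overlap, which was also so for the tested members together and for all tested probe sets. The spindle group ran from -0.01 to 0.19 in heads and from -0.07 to 0.09 in tails and overlapped. So did the G1 to S, G2 to M, passenger complex and cytokinesis, anaphase-promoting complex and CDK groups. Tail replicate 1 was the lowest array for the G1 to S group, at -0.48, and for the cohesin and condensin group. Within a tissue the members spread like other genes, with a median SD of 0.29 in heads and 0.37 in tails, against 0.33 and 0.37 for all tested probe sets.

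**Figure D4:**
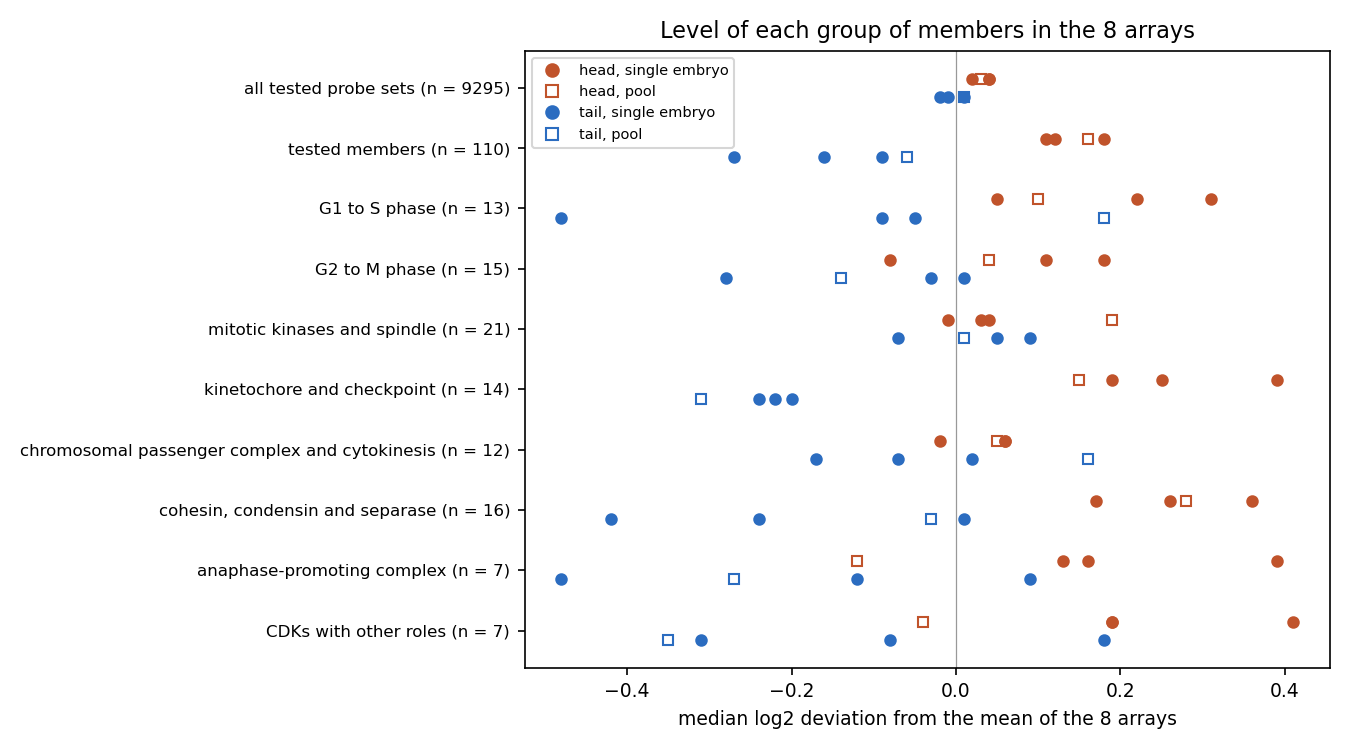
Median log2 deviation from the mean of the 8 arrays (x axis) for all tested probe sets, all tested members and each role with 7 or more tested probe sets; orange marks heads, blue tails, and open squares pools. Heads and tails are apart for all tested probe sets, all tested members, the kinetochore group and the cohesin and condensin group. They overlap for every other role shown.

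Other genes of the cell cycle were compared with 1 probe set per gene, the brightest. Of 16 tested genes of origin licensing and the replication fork, 10 did not pass, and the median log2 change was 0.77. The other 6 were higher in heads, where the share over all tested probe sets was 2.00%. The first 4 by change were cdc45.L (1.43), part of the replicative helicase, mcm6.2.L (1.35) and mcm4.L (1.07), subunits of the helicase ring, and rrm2.2.L (1.27), a subunit of the enzyme that makes deoxyribonucleotides. Of these, mcm6.2.L and rrm2.2.L passed whichever array was left out. The gene cdc45.L missed the threshold without head replicate 3 (adjusted p = 0.0518), and mcm4.L missed it without any 1 head array and without tail replicate 2 or 3, with an adjusted p of up to 0.094. Of the 2 further calls, mcm2.L (1.07) passed in all 8 such fits and mcm5.L (0.82) in 0 of 8, with adjusted p from 0.0535 to 0.148. Of the 19 genes of this list on the array, mcm3.L, gins2.L and cdc7.L were under the filter and not tested. Their log2 changes were -0.19, -0.30 and 0.12 when no filter was used.

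Of 13 other genes of G1 and S control, mycn.L, a Myc-family transcription factor gene, was 5.01-fold above tails in heads, cdca7.L was 2.40-fold above, and the other 11 missed the threshold. Both were measured by probe sets of the type that can bind other transcripts. The call for cdca7.L was lost without head replicate 3 (adjusted p = 0.0656) or tail replicate 3 (0.0909). Of 9 other cohesin and chromosome genes, esco2.S, the acetyltransferase that establishes cohesion during S phase, was 2.86-fold higher in heads, and the other 8 missed the threshold. Its adjusted p was up to 0.0944 with 1 array left out (without head replicate 2), and it was also over the threshold without head replicate 3 (0.0594), head replicate 4 (0.0774) or tail replicate 2 (0.0795).

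The mitotic lists had no calls in limma. Of 10 other genes of mitotic entry, 0 passed, with a median of 0.09 and 0 at an unadjusted p under 0.05. Of 11 other spindle and kinetochore genes, 0 passed, with a median of 0.17 and 1 at an unadjusted p under 0.05, the spindle gene hmmr.L (-0.75, limma adjusted p = 0.139). A further 4 of the 15 genes of that list on the array were under the filter and not tested. Among them, and named after their values were seen, sgo2.L, a protector of cohesin, was at 5.40 to 7.62 in heads and 8.11 to 8.60 in tails, and spdl1.L had a log2 change of -1.18. Of 4 other genes of the anaphase-promoting complex and its conjugating enzymes, 0 passed, with a median of 0.10 and 0 at an unadjusted p under 0.05. Whether the replication list differed from the mitotic lists was not tested.

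**Figure D5:**
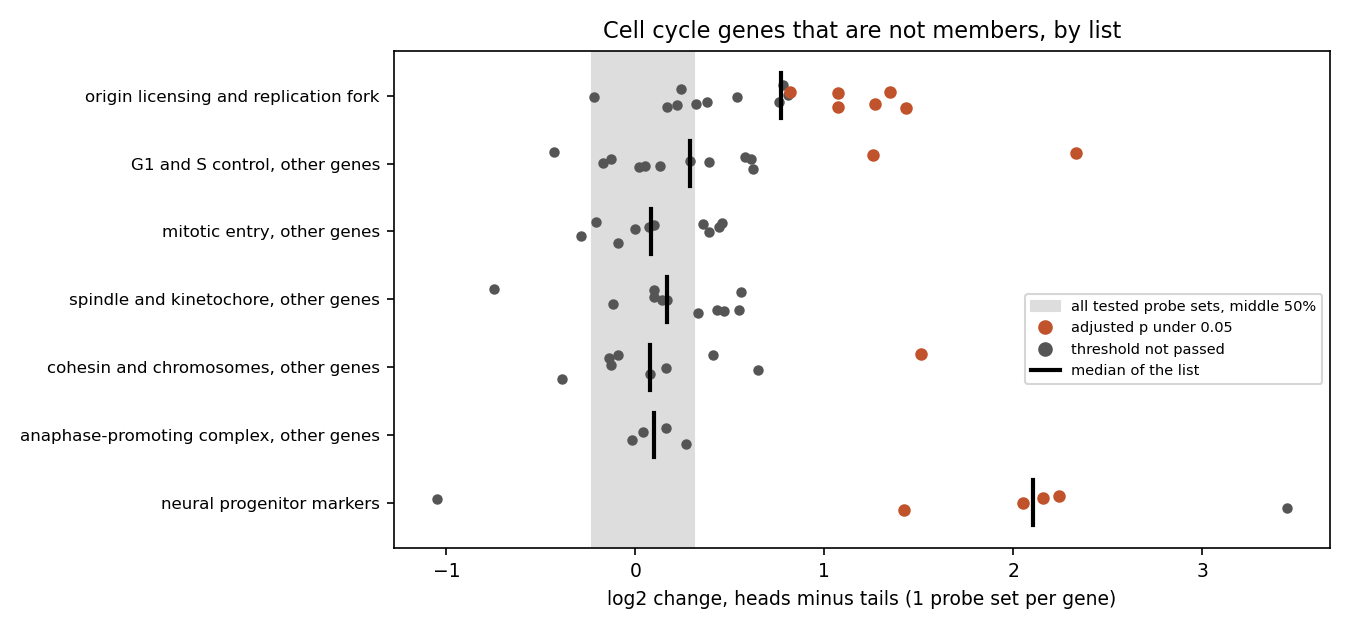
Log2 change, heads minus tails (x axis), of cell cycle genes that are not members and of neural progenitor markers, 1 probe set per gene; orange dots have a limma adjusted p under 0.05, black bars are list medians and the grey band is the middle 50% of all tested probe sets. Replication genes have a median of 0.77, the mitotic lists medians of 0.09 to 0.17, and neural progenitor markers one of 2.10.

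Markers of other cell types were compared in the same fit. The mean level of a list is over all its genes on the array, also those under the filter. These were 8 neural progenitor, 9 neuron, 7 multiciliated cell and 10 skeletal muscle genes. Of 6 neural progenitor markers tested, 4 passed with higher levels in heads (msi1.S, sox2.L, sox11.S and zic2.S), and the median change was 2.10. The 2 listed genes that did not pass went opposite ways: sox3.S had a log2 change of 3.45 and pcdh8.2.L one of -1.05 (limma adjusted p = 0.111 and 0.308). Whether any of the listed genes marks neural progenitors in these sections was not tested. The tail means of sox2.L and sox3.S (6.99 and 6.38) lay under the filter value of 7.865. The mean log2 level of the list ran from 9.48 to 10.56 in heads and from 7.56 to 9.44 in tails. Of 5 neuron markers, neurod1.L and prph.L were higher in heads and snap25.L higher in tails, and the list's mean level ran from 8.73 to 9.34 in heads and from 8.47 to 8.86 in tails. None of 6 multiciliated cell markers passed in limma, and 0 had an unadjusted p under 0.05. That list's mean level ran from 9.56 to 10.26 in heads and from 9.34 to 9.85 in tails. Of 8 skeletal muscle markers tested, with a median change of -0.23, 0 passed in limma. At an unadjusted p under 0.05, 3 were higher in tails, where the share over all tested probe sets was 8.61%. The mean level of the whole muscle list ran from 10.37 to 10.79 in heads and from 10.59 to 11.51 in tails. The part of these cell types in the changes of the division genes was not tested. With single arrays left out, sox2.L, neurod1.L, prph.L and snap25.L passed in all 8 fits. The other calls were lost in some: sox11.S without head replicate 2, 3 or 4 or tail replicate 2 or 3 (adjusted p up to 0.0944), zic2.S without head replicate 2 or 4 or tail replicate 2 or 3 (up to 0.0612), and msi1.S without head replicate 2, 3 or 4 or tail replicate 1, 2 or 3 (up to 0.0972).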

How the data were processed

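Samples were grouped by their titles. The deposited intensity values are MAS5 signals per probe set on a linear scale; the submitters' processing notes name MAS5 without a version. Leaving out the lowest and highest 2 percent, every array has a mean of 1000. Detection calls and scanner values were not used here.

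Of 15611 probe sets, 120 controls were left out. Symbols came from the array annotation: 9304 probe sets had 1, 195 several and 5992 none. Of the 147 members, 146 matched a RefSeq table (Xenopus_laevis_v10.1), which changed 0 symbols. No coordinates are given.

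Signals under 1 were set to 1 before the log2 transform. Probe sets with a mean under the 40th percentile (7.865) were left out. Heads and tails were compared on all 8 arrays with limma 3.58.1 in R 4.3.3 (lmFit, eBayes with an intensity trend), two-sided, Benjamini-Hochberg over 9295 probe sets, threshold 0.05. Folds are 2 to the power of the log2 change. The fit was also run on simulated data with independent normal noise. Such data hold no outlying arrays or pools, so that run does not cover these.

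Named genes were every member past the threshold, the 3 brightest of each role, set key genes and their other copies. Further names were picked with their values in view. The members, roles and lists were chosen with earlier results of these data known. Alternatives are under the closing section.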

Additional observations from a re-analysis of the deposited data

Results flagged for a closer look

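Among 51 named probe sets with 2 groups of 4 arrays each, 1 array stood far from the other 3 of its tissue in 5 of 102 groups, judged by the gap to the nearest array over the group's range. Chance gives about 1 in 20. For bub1b.L head replicate 1 was at 8.87 and the other heads at 10.16 to 10.30, and the log2 change was 0.32 without it against -0.02. For smc3.L head replicate 1 was at 8.62 and the others at 9.16 to 9.19, and the change was 0.19 without it against 0.06. For incenp.L tail replicate 1 was at 9.26 and the others at 10.16 to 10.32, and the change was -0.25 without it against -0.01. For one plk1.S probe set tail replicate 1 was at 10.32 and the others at 11.94 to 12.02, and the change was -0.02 without it against 0.40. For cenpm.L tail replicate 3 was at 8.33 and the others at 9.43 to 9.56, and the change was 0.99 without it against 1.27.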

How the results depend on the processing

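With all arrays 429 probe sets and 5 members passed. The counts were 273 and 3 with the filter at the 60th percentile, 212 and 1 (cdk2.S) in the 6 single-embryo arrays, 1223 and 15 with array weights, and 679 and 4 without head replicate 1 and tail replicate 1, a setting chosen after seeing the data. With 1 array left out they ran from 211 to 508 and from 1 to 6. Quantile normalization gave 440 and 4, of 263 probe sets higher in tails against 243, and median centring 451 and 4, of which 288 were higher in tails. With the replicate number as a block 635 probe sets and 5 members passed (kif5b.S in place of ncaph2.L). The numbers are not known to pair the samples: deviations of same-numbered arrays correlated by 0.226, 0.034, 0.018 and 0.596. The causes were not tested. Of the 5 members past the threshold cdk2.S passed in every setting tried, and 32 fits of the other 4 missed the threshold. Among the 51 named probe sets that were tested, 10 fits of members that had not passed did so. Each kept the sign its member had with all arrays. The fits of anapc16.L, kif5b.S and wee1.S pointed to tails, and those of cdk2ap1.S and e2f1.L to heads. Members outside the 51 named probe sets passed too with array weights, among them cenpk.L, kif2c.S and ncapg2.L. Of the 15 members past the threshold in that setting, 12 changed toward heads and 3 toward tails. With 4 arrays a tissue and no detection calls, small changes of dim probe sets were not resolved.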

Other observations

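Each tissue had 1 pool beside its single embryos, so no test was made. Both pools lay above every single embryo of their tissue for 19 of 110 tested members (17.3%, against 15.9% of all tested probe sets) and below for 8 (7.27%, against 12.3%). Chosen after their values were seen, wee1.L, wee1.S, cdk4.S, ccne1.S, ndc80.S and kif5b.S were among the first, and ccnd1.L, ccnd2, cdk1.S and anapc11.L among the second. For ccne1.S the pools were at 10.16 in heads and 9.69 in tails, and the single embryos at 8.96 to 9.37 and 8.52 to 9.23.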
